A study of Mus musculus with 10 samples.

Results

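Histone acetyltransferases place acetyl groups on lysines of histone tails, and 34 genes for these enzymes and for subunits of the complexes around Kat2a were followed in mouse embryonic stem (ES) cells in which Kat2a was inhibited. The members were named by list: the Kat2 enzymes, the subunits of SAGA and ATAC, the MYST family, Ep300, Crebbp and Hat1. All 34 were found among the 30677 genes of the count table by Ensembl identifier, and all 34 had enough counts to enter the test, among 20027 genes that did. TNGA cells, a mouse ES cell line with a GFP reporter in one allele of Nanog, were grown in serum and LIF and treated for 48 hours with 100 µM MB-3, a small-molecule inhibitor of Kat2a (Gcn5), or with DMSO, the vehicle. Both treatments contained 0.1% DMSO. RNA was sequenced from 3 cultures per treatment (replicates A, B and C), and acetylation of lysine 9 of histone H3 (H3K9ac) was mapped by ChIP-seq, with 1 merged peak list per treatment. All cultures were of the same line, so the p-values below measure the spread between these cultures and not between lines. In the order A, B, C the DMSO libraries held 48144367, 51137896 and 46863700 counts, and those of MB-3 49334434, 44985772 and 42270312.

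Kat2a and its paralog Kat2b are catalytic subunits that work only as parts of larger complexes. SAGA joins a Kat2 enzyme, held by Tada2b, Tada3 and Sgf29, to a structural core, to the activator-binding protein Trrap and to a module that removes ubiquitin from histone H2B. ATAC (a protein complex, not the accessibility assay of the same name) uses the same enzymes with Tada2a in place of Tada2b and holds Kat14 as a further acetyltransferase. Kat5 to Kat8 form the MYST family, Ep300 and Crebbp are broad co-activator acetyltransferases, and Hat1 acetylates newly made histone H4 before it is laid down on DNA. In ES cells the Kat2 complexes are known as co-activators used by Myc and other transcription factors.

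The upstream sequences of the Kat2 pair are shown because Kat2a is the enzyme at which MB-3 is aimed and Kat2b is its paralog, and because they carried none of the same motifs among 6 searched. The sequences are RefSeq's on GRCm38.p6, each the 250 bases before RefSeq's start of the gene, at chr11:100712468-100712717 on the minus strand for Kat2a and at chr17:53566721-53566970 on the plus strand for Kat2b. Capitals mark TGCGCA, a part of the NRF1 motif, in Kat2a and ATTGG, the reverse of a CCAAT box, in Kat2b.
Kat2a: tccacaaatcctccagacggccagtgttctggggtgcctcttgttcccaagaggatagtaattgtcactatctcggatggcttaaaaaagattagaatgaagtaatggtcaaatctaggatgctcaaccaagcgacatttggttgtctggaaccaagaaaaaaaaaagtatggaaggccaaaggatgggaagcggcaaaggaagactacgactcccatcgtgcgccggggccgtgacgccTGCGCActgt
Kat2b: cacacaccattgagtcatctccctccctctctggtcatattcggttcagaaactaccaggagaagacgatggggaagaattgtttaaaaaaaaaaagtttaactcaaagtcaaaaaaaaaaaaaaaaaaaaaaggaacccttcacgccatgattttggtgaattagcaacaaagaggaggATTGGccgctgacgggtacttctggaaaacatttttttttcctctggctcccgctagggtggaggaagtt
Both windows are poorer in CpG than most of the list, with 11 CpG in Kat2a and 6 in Kat2b against a median of 22.5 over the 30 members whose promoter was given. The median was 15 over the promoters of 11695 genes tested here.

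Over the 30 members the median GC content of the window was 63.2%, against 59.6% for the promoters of tested genes. Each motif was searched as written on both strands of the same 250 bases. GGGCGG, the GC box, was found in 21 of 30 members (70.0%), among them Ep300, Crebbp, Trrap and Wdr5, against 58.3% of the promoters of tested genes and 33.0% of all 27025 promoters. CACGTG, the E-box, was found in 6 members, namely Tada2a, Taf6l, Taf12, Dr1, Kat5 and Hat1, or 6 of 30, against 8.23% of tested genes. CCAAT was found in 30.0% against 36.8%, and TATAAA, the TATA box, in 0% against 6.48%. CCGGAAG (an ETS motif) and TGCGCA were each found in 13.3% of members, against 13.1% and 11.4%. Hat1 held 4 of the 6 motifs, while Tada3 and Supt7l held none. Tada1, Usp22, Eny2 and Kat6a were not in the promoter table. These matches describe the letters in a window and not binding.

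The cultures were ES cells by their transcripts. All 10 ES cell markers were tested and abundant in every library, with Dppa5a highest (1260 to 1580 CPM, the read count scaled to the size of its library), Pou5f1 at 650 to 717 CPM and Nanog at 243 to 274 CPM. Their summed level was 4880 to 5390 CPM in DMSO and 4900 to 5210 CPM in MB-3. Within that sum the groups did not overlap in 4 of the 10 markers, against 15.6% of all tested genes. Klf4 (log2 fold change -0.15, SE 0.06), Tfcp2l1 (-0.17, SE 0.07) and Esrrb (-0.07, SE 0.06) were lower in every MB-3 library, and Fgf4 (0.17, SE 0.07) was higher. The edgeR adjusted p of these 4 was 0.369 to 0.697. Of 8 fibroblast markers, 4 stayed under 1 CPM in every library, with Lum and Postn at or near 0, and Thy1 was the most abundant. The fibroblast sum was 8.05 to 10.8 CPM in DMSO and 6.72 to 6.92 CPM in MB-3. Among the 5 mesendoderm markers, Mesp1 was near 0 and the gene T led. Their sum was 15.2 to 46.2 CPM in DMSO and 7.86 to 13.5 CPM in MB-3. T (log2 fold change -1.89, SE 0.36, edgeR adjusted p = 0.0611) and Mixl1 (-1.90, SE 0.35, edgeR adjusted p = 0.0507) were lower in every MB-3 library than in any DMSO library. In Eomes (-0.69, SE 0.23) and Gsc (-0.22, SE 0.46) the groups overlapped. The extraembryonic endoderm sum was 43.0 to 50.7 CPM in DMSO and 44.7 to 44.9 CPM in MB-3, mostly from Lama1 and with Sox17 near 0, and the neuroectoderm sum, led by Otx2, was 120 to 150 CPM and 125 to 138 CPM. Within that sum genes differed in direction. Otx2 was at 51.6, 52.4 and 52.5 CPM in DMSO and 66.3, 60.5 and 66.2 CPM in MB-3, with no overlap and a log2 fold change of 0.30 (SE 0.06, edgeR adjusted p = 0.0611), while the values were 0.38 (SE 0.12) for Pax6, -0.71 (SE 0.22) for Nes and -0.59 (SE 0.25) for Fgf5, with overlap in all 3. The fibroblast and mesendoderm sums were thus lower in every MB-3 library than in any DMSO library, Otx2 was higher, and 4 ES cell markers lay apart as given above, and the part of these markers in the values below was not tested. In bulk RNA, fewer cells of a type and less RNA per cell cannot be told apart.

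Levels in DMSO were compared between genes per length, as CPM per kilobase of exon (all annotated exons of a gene joined). Hat1 led with 135, 143 and 135 CPM per kb in the DMSO replicates (138 ± 4.50, SD, n = 3), followed by Wdr5, a scaffold of ATAC and of several methyltransferase complexes, with 60.1, 62.5 and 61.9 CPM per kb. Kat2a was the third, with 36.1, 39.9 and 36.4 CPM per kb, at percentile 90.0 of all tested genes. The 3 genes did not overlap with each other, and Hat1 stood 3.68-fold above Kat2a per length. At the other end, Tada1, a histone-fold subunit of SAGA, had 1.19, 1.34 and 1.35 CPM per kb, and Atxn7, which anchors the deubiquitinase module, had 1.21, 1.03 and 1.23 CPM per kb. These neighbours overlapped. Taf9 was lowest by far, with 0.196, 0.188 and 0.148 CPM per kb, but 73.8% of its exon bases are also exon of Ak6 on the same strand, so reads there could have been assigned to either gene or to none. Ak6 was counted at 38.7 to 44.3 CPM.

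**Figure D1:**
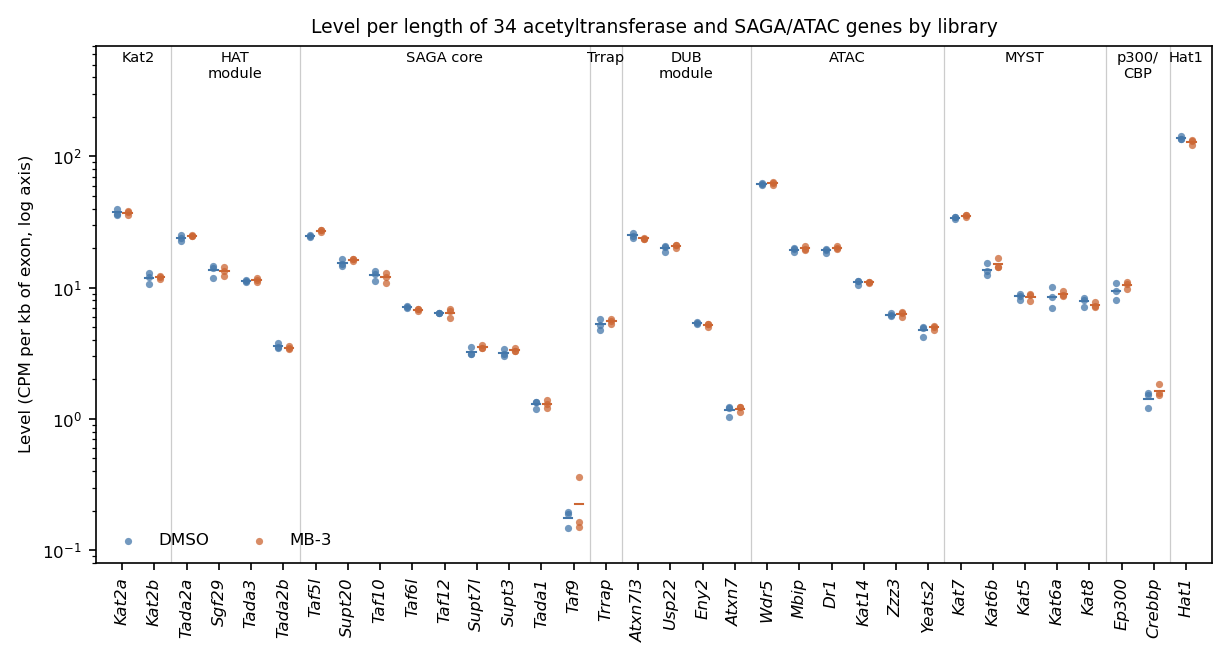
Level per length (CPM per kb of exon, log axis) of the 34 genes in each library, grouped by role, with blue points for DMSO, orange points for MB-3 and bars at the means (n = 3 per treatment). HAT and DUB mark the acetyltransferase and deubiquitinase modules; Hat1, Wdr5 and Kat2a are highest, Taf9 is lowest, and the treatments lie close together except in Taf9, where MB-3 replicate A stands higher.

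Between these ends, 17 of 34 genes exceeded 10 CPM per kb in DMSO and a further 16 lay between 1 and 10. Above the median of all tested genes were 27 of the 34. Of the 33 pairs of neighbours in the order, 22 overlapped in their DMSO values and 11 did not, so most of the middle of the order was not resolved. The length used moves some genes. Per kilobase of the longest transcript, Kat6b moved from rank 12 to rank 6 and Kat2b from rank 15 to rank 21. Hat1 (209 CPM per kb) and Wdr5 (76.5) stayed first and second. Kat7 (53.2 CPM per kb) was then the third and Kat2a (39.9) had rank 4. At the low end Tada1 (2.40) then lay above Crebbp (1.79), which lay above Atxn7 (1.35) and Taf9. Within complexes, levels differed between subunits, by ratios that also depend on the length used. Taf5l, a WD-repeat protein of the SAGA core, had 24.8 ± 0.527 CPM per kb and its histone-fold partner Taf6l 7.13 ± 0.105 (SD, n = 3), or 29.8 and 14.5 per length of the longest transcript. In the deubiquitinase module the adaptor Atxn7l3 (25.0 ± 1.17) and the enzyme Usp22 (19.9 ± 1.02) exceeded Eny2 (5.39 ± 0.0841) and Atxn7 (1.16 ± 0.107). Per length of the longest transcript the mean levels of these 4 were 27.7, 21.9, 10.4 and 1.35, in the same order. In ATAC, Wdr5 was at 61.5 ± 1.25 and Yeats2, a reader of acetylated lysine, at 4.73 ± 0.444. In the MYST family Kat7 (Hbo1) led with 34.2 ± 0.653 CPM per kb, and the DMSO values of Kat8 (Mof, 7.85 ± 0.664), Kat6a (mean 8.54) and Kat5 (mean 8.57) overlapped at the low end. Per length of the longest transcript Kat6a was the lowest of the family, at 8.60, below Kat5 (13.4) and Kat8 (14.4).

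Paralogs were set against each other within each library, which removes the library size. Kat2a exceeded Kat2b per length by 2.81, 3.33 and 3.39-fold in DMSO and by 2.97, 3.25 and 3.12-fold in MB-3. The ranges overlap, with means of 3.18 ± 0.321 and 3.11 ± 0.138 (SD, n = 3). Ep300 exceeded Crebbp by 6.70 ± 1.37-fold in DMSO and 6.44 ± 0.574-fold in MB-3, and Tada2a, the ATAC adaptor, exceeded Tada2b, the SAGA adaptor, by 6.65 ± 0.440-fold and 7.13 ± 0.266-fold. Kat6b exceeded Kat6a 1.62 ± 0.133-fold in DMSO. Per length of the longest transcript, the mean DMSO ratios of these 4 pairs were 3.23, 7.99, 9.19 and 3.51, in the order given. No difference between treatments was shown for any of the 5 ratios computed (these 4 and that of Taf9b to Taf9) by an exact two-sided permutation test, with p of 0.8 for Kat2a to Kat2b and 0.2 for Tada2a to Tada2b (0.9 for each after Benjamini-Hochberg adjustment over the 5 ratios). With 3 libraries against 3 the smallest p this test can give is 0.1, so no ratio could pass 0.05.

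The main comparison, MB-3 against DMSO, asks whether transcripts of the target enzyme, its partners or other acetyltransferases changed in cells treated with the inhibitor. No member was differentially expressed at an adjusted p under 0.05 (edgeR quasi-likelihood test, Benjamini-Hochberg), where 0.205% of all tested genes were (41 of 20027). At an unadjusted p under 0.05, edgeR gave 1 member, Taf5l, where 10.9% of all tested genes passed. DESeq2, limma-voom and the other fits with treatment as the only term also called 0 members. An edgeR fit with the replicate letter as a block called 2, Kat6b and Ep300, among 1425 of the 20027 tested genes. The estimates were close to 0: the median log2 fold change of the members was 0.03, from -0.10 (Hat1) to 0.36 (Taf9), and 24 of 34 were positive (70.6%), against 49.7% of all tested genes. For 32 of 34 members (94.1%) the 95% interval lay within a 1.3-fold change either way, as it did for 94.9% of the 4811 tested genes of like abundance (24.8 to 97.1 CPM, the middle of the members' range) and 55.3% of all tested genes. The exceptions were Crebbp and Taf9.

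**Figure D2:**
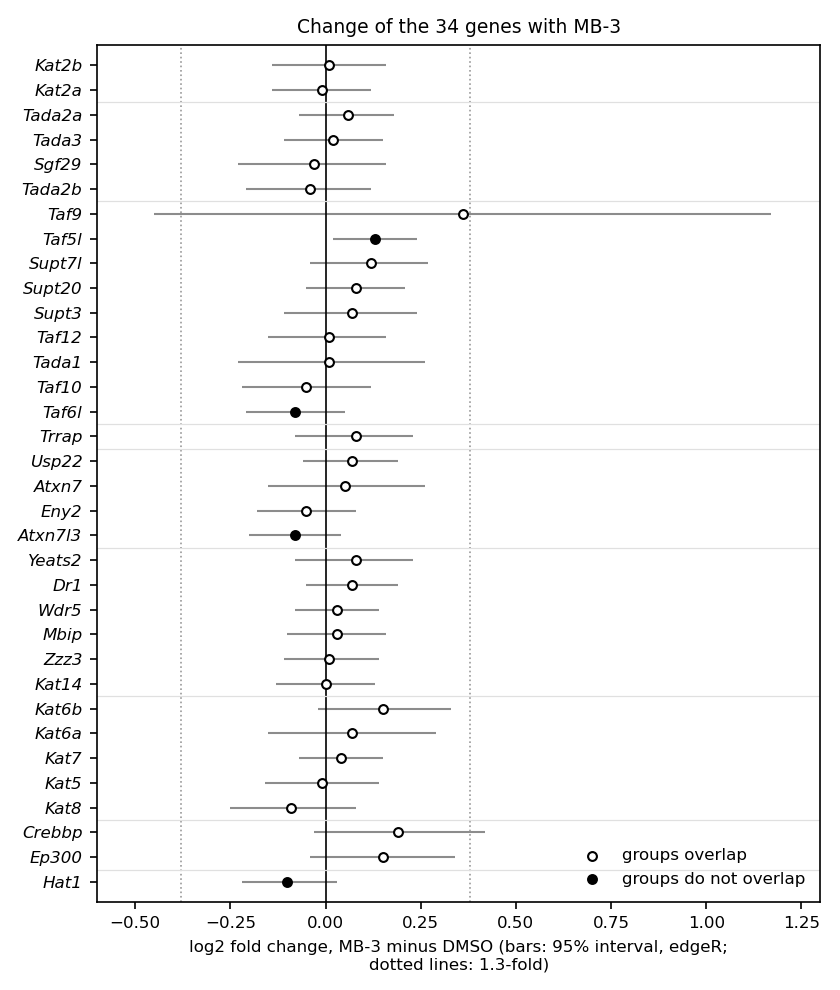
Log2 fold change of the 34 genes, MB-3 minus DMSO (horizontal axis), with 95% intervals from edgeR (3 libraries per treatment); genes are grouped by role in the order of the text, filled points mark genes whose groups do not overlap, and dotted lines mark a 1.3-fold change. The intervals of 33 genes include 0, Taf5l is the exception, and Taf9, the least counted gene, has the widest.

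Kat2a itself, the target of the inhibitor, was counted at 126, 139 and 127 CPM in DMSO and at 124, 131 and 133 CPM in MB-3. The groups overlap, and DMSO replicate B is the highest of the 6. The log2 fold change was -0.01 (SE 0.06, 95% interval -0.14 to 0.12), so that the interval leaves room for a fall to 0.91-fold or a rise to 1.09-fold. Kat2b was at 62.6, 58.3 and 52.2 CPM in DMSO and 58.6, 56.5 and 59.7 CPM in MB-3. Its MB-3 values lie within the range of DMSO, with a log2 fold change of 0.01 (SE 0.07, 95% interval -0.14 to 0.16). A pseudogene, Kat2b-ps, was counted separately at 13.7 to 16.7 CPM, and reads that fit both copies make the Kat2b values uncertain by an amount that was not measured. RNA levels say nothing of the activity of either enzyme.

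In the acetyltransferase module, 2 of 4 log2 fold changes were positive, between -0.04 for Tada2b and 0.06 for Tada2a, and the other two were 0.02 for the shared subunit Tada3 and -0.03 for the methyl-lysine reader Sgf29. All 6 genes of the ATAC group were at or above 0, from 0.00 for Kat14 (whose sign turned under other scalings) to 0.08 for Yeats2, and in all 6 the groups overlapped. Trrap, which brings both SAGA and the Kat5 complex to activators, had a log2 fold change of 0.08 (SE 0.07).

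Taf5l was the member with the smallest p. It was counted at 88.7, 90.5 and 86.7 CPM in DMSO and 98.3, 94.8 and 98.0 CPM in MB-3. Every MB-3 library lies above every DMSO library. The log2 fold change was 0.13 (SE 0.05, 95% interval 0.02 to 0.24, edgeR adjusted p = 0.383, Benjamini-Hochberg over all tested genes). In 3 further members the groups did not overlap, with MB-3 below DMSO, which makes 4 of 34 members without overlap, against 15.6% of all tested genes (8.22% higher in MB-3 and 7.37% lower). Taf6l, the core partner of Taf5l, was at 35.6, 36.4 and 35.4 CPM in DMSO and 33.2, 34.2 and 34.4 CPM in MB-3. Its log2 fold change was -0.08 (SE 0.06, edgeR adjusted p = 0.672). Atxn7l3 was at 99.3, 101 and 108 CPM in DMSO against 96.8, 96.5 and 99.2 CPM in MB-3, where DMSO replicate A and MB-3 replicate C differ by less than 1 CPM, and the log2 fold change was -0.08 (SE 0.06). Hat1 was at 389, 412 and 391 CPM in DMSO and 353, 384 and 378 CPM in MB-3, with a log2 fold change of -0.10 (SE 0.06, edgeR adjusted p = 0.571). None of the 4 passed the adjusted threshold. The count depends on single libraries, as does that over all tested genes. It was 15 without DMSO replicate A (28.9% of all tested genes), 4 without B (29.3%) and 5 without C (22.6%). Without MB-3 replicate A it was 8 (22.7%), without B 7 (26.1%) and without C 6 (27.8%).

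The rest of the SAGA core lay between -0.05 for Taf10, a histone-fold protein shared with TFIID, and 0.12 for Supt7l, apart from Taf9. Supt20 and Supt3 had log2 fold changes of 0.08 and 0.07, Tada1 and Taf12 of 0.01. Taf9 was counted at 0.415, 0.399 and 0.315 CPM in DMSO and 0.764, 0.319 and 0.350 CPM in MB-3, which is 14 to 38 counts per library. Only MB-3 replicate A stands apart, and without it the log2 fold change was -0.17 instead of 0.36. In the deubiquitinase module Usp22 and Atxn7 had log2 fold changes of 0.07 and 0.05, and Eny2 had -0.05. Part of the exon bases of Taf10 (45.9%, with Ilk) and Tada1 (25.6%, with Pogk) lie in an exon of another gene on the opposite strand, as do smaller shares of Kat5 (12.1%, with Rnaseh2c), Tada2b (10.8%, with Grpel1) and Supt20 (10.3%, with Gm21958). Kat14 shares 14.7% of its exon bases with Pet117 on the same strand. In 7 of the 34 members, these and Taf9, such a share exceeded 10%. Their values are uncertain by an amount that was not measured and that the share does not give. Whether the counting used strand is not given in the sources used here, so reads of such pairs may not be told apart. In the count table Ilk was at 0.0399 to 0.312 CPM and Pogk at 3.65 to 5.62 CPM.

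The largest positive estimates beside Taf9 were those of 3 large enzymes, Crebbp, Kat6b and Ep300. Crebbp was at 20.6, 21.2 and 16.4 CPM in DMSO and 24.9, 21.3 and 20.4 CPM in MB-3, Kat6b at 259, 208 and 223 CPM and 281, 244 and 243 CPM, and Ep300 at 154, 116 and 135 CPM and 159, 138 and 153 CPM. In all 3 the groups overlap, because DMSO replicate A (for Crebbp also B) reaches the lower MB-3 values. The log2 fold changes were 0.19 (SE 0.10) for Crebbp, 0.15 (SE 0.08) for Kat6b and 0.15 (SE 0.09) for Ep300, with adjusted p of 0.522, 0.521 and 0.571 in edgeR. Within every replicate letter MB-3 was above DMSO in all 3 genes, but the letters are not stated to pair cultures. With the letter as a block, edgeR called Kat6b (adjusted p = 0.0196) and Ep300 (adjusted p = 0.0338) but not Crebbp. Single libraries moved the estimates of the fit without the block. With 1 library left out, that of Ep300 ran from 0.050 (without DMSO replicate B) to 0.256 (without DMSO replicate A), that of Kat6b from 0.082 (without MB-3 replicate A) to 0.248 (without DMSO replicate A), and that of Crebbp from 0.087 (without DMSO replicate C) to 0.262 (without DMSO replicate B). Among the other MYST enzymes, Kat6a (Moz) had 0.07, Kat7 0.04, Kat5 (Tip60) -0.01 and Kat8 -0.09. For Crebbp the interval (-0.03 to 0.42) leaves room for a rise to 1.33-fold. The pseudogenes Kat6b-ps1 (4.23 to 6.63 CPM) and Kat6b-ps2 (4.61 to 5.57 CPM) were counted separately. Reads that fit more than 1 copy make the Kat6b values uncertain by an amount that was not measured.

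**Figure D3:**
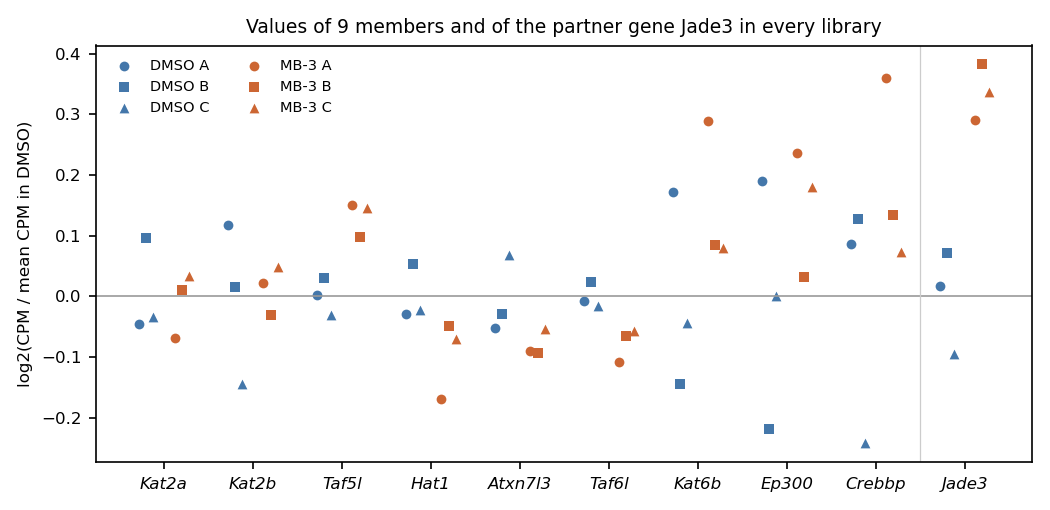
Value in every library of 9 members and of Jade3, as log2 of CPM over the mean CPM in DMSO (vertical axis); blue is DMSO, orange is MB-3, and the shape gives the replicate letter. Taf5l and Jade3 lie wholly higher in MB-3, Hat1, Atxn7l3 and Taf6l wholly lower, and in Kat6b and Ep300 replicate A is the highest and B the lowest or near it in each treatment.

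Enzymes with long transcripts were also among the members that varied most between cultures of the same treatment. In DMSO the coefficient of variation ran from 0.606% for Taf12 to 18.2% for Kat6a, with a median of 5.70% over the 34. It was under 5% in 13 genes and over 10% in 7, namely Kat6a, Ep300, Crebbp, Kat6b, Trrap, Sgf29 and Taf9. The 6 members whose longest transcript is 7 kb or more are Zzz3, Kat6b, Kat6a, Ep300, Crebbp and Trrap. In 5 of these 6, DMSO replicate B was the lowest DMSO library and replicate A the highest, with median deviations from the DMSO mean of 0.16 (A), -0.14 (B) and -0.01 (C) in log2 CPM. In MB-3 they were 0.08, -0.06 and 0.00. The 1318 tested genes of 7 kb or more deviated the same way in DMSO, with medians of 0.10, -0.10 and 0.00, and 64.8% of them were lowest in DMSO replicate B, against 83.3% of the long members. Kat6a, for example, was at 92.7, 64.2 and 78.2 CPM in DMSO and 86.4, 79.3 and 81.2 CPM in MB-3, and Crebbp was the exception, lowest in DMSO replicate C. For the 27 shorter members other than Taf9 the DMSO medians were -0.02, 0.02 and 0.01. Over 33 members (without Taf9), the Pearson correlation of log length with the deviation was 0.72 in DMSO replicate A, -0.58 in B and -0.28 in C. Over 19958 tested genes it was 0.15, -0.23 and 0.10. These genes share the same libraries, and the values are given as a description. The log2 fold changes of the members were also higher in longer members (r = 0.57 over 33 genes), while over all 19958 genes r was 0.00. All 6 long members had a positive log2 fold change, as did 67.4% of the 1318 tested genes of 7 kb or more, whose median was 0.06. Without DMSO replicate B, the log2 fold change of Kat6a was -0.054 instead of 0.07. What set the libraries apart by transcript length, and its part in the estimates of Ep300, Kat6b and Crebbp, was not tested.

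**Figure D4:**
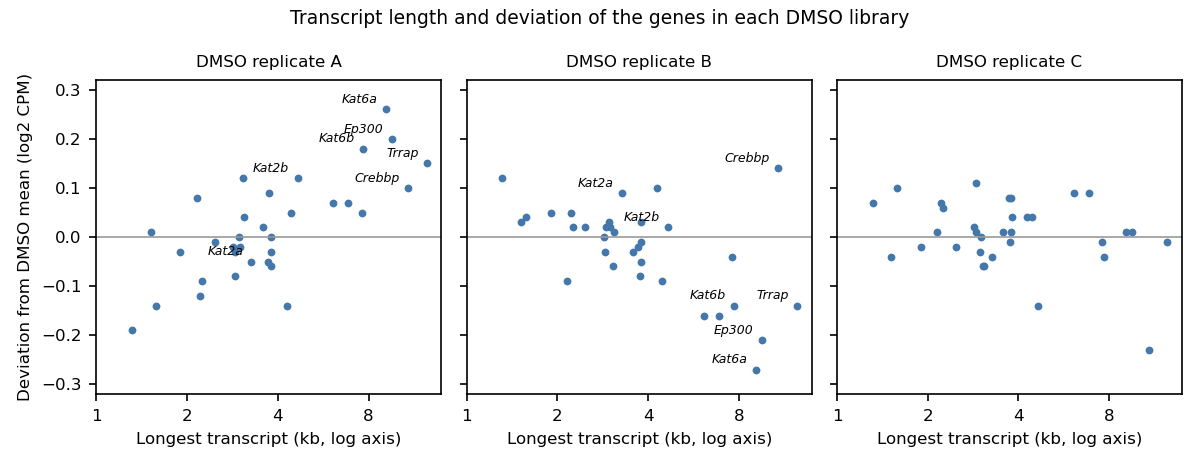
Deviation of 33 members (Taf9 left out) from their DMSO mean, in log2 CPM, against the length of the longest annotated transcript in kb (log axis), with 1 panel for each DMSO library. The long transcripts of Kat6a, Ep300, Kat6b and Trrap lie above 0 in replicate A and below 0 in replicate B.

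Around the members, 56 further genes of the same pathways were followed: paralogs and partners of SAGA subunits, subunits of the Kat5, Kat6, Kat7 and Kat8 complexes, the Hat1 partner Rbbp7, further acetyltransferases and genes of acetyl-CoA supply. All 56 were tested, 1 rose (0.0999% of all tested genes did), none fell, and the median log2 fold change was 0.03. The gene that rose was Jade3, a scaffold that directs Kat7 to its histone substrate, on chromosome X (GRCm38, 20425688 to 20519939, plus strand). It was counted at 60.4, 62.7 and 55.9 CPM in DMSO and at 73.0, 77.8 and 75.4 CPM in MB-3. Every MB-3 library exceeds every DMSO library, by a log2 fold change of 0.34 (SE 0.06, 95% interval 0.21 to 0.47, edgeR adjusted p = 0.0488, Benjamini-Hochberg). The call stood close to the threshold and was lost in 8 of 14 alternative fits, at a log2 fold change of 0.292 to 0.361. It was lost with limma-voom (adjusted p = 0.0655), with upper-quartile scaling (edgeR, 0.0514), with a filter at 1 CPM (edgeR, 0.0560), and when any library other than DMSO replicate B was left out (edgeR, 0.0825 to 0.294). Of the 8 genes in the Kat6 and Kat7 group (Brpf1, Brpf3, Brd1, Ing4, Ing5, Jade1, Jade2, Jade3), 7 had a positive log2 fold change, with a median of 0.12, and Ing4 had -0.08 (SE 0.13). Kat6a, Kat6b and Kat7 themselves were also positive, at 0.07, 0.15 and 0.04, but Kat6a was at -0.054 without DMSO replicate B. Positive values were found in 69.6% of the 56 genes and in 49.7% of all tested genes.

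At an unadjusted p under 0.05 edgeR gave 5 of the 56 genes, all higher in MB-3, against 10.9% of all tested genes. Beside Jade3 these were Sf3b3, Mbtd1, Ncoa3 and Hcfc1. Sf3b3, a splicing factor subunit also found in SAGA, was at 339, 362 and 350 CPM in DMSO and 394, 428 and 401 CPM in MB-3, with no overlap, and a log2 fold change of 0.22 (SE 0.06, edgeR adjusted p = 0.174). Mbtd1, a methyl-lysine reader of the Kat5 complex, was at 185, 170 and 175 CPM and 206, 195 and 197 CPM, again with no overlap, and a log2 fold change of 0.17 (SE 0.06, edgeR adjusted p = 0.273). In Ncoa3, a co-activator of nuclear receptors (0.19, SE 0.07), and Hcfc1, a host cell factor that binds Kat8 complexes (0.16, SE 0.07), the groups overlapped, since DMSO replicate A was above the lowest MB-3 library. No gene of acetyl-CoA supply (Acly, Acss2, Slc25a1) had a log2 fold change beyond 0.06 in size, and Rbbp7 had 0.00. The groups did not overlap in 7 of the 56 genes, against 15.6% of all tested genes.

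H3K9ac is the mark that Kat2a and Kat2b are best known for, and peaks near the members were read from the 2 deposited lists. A gene name was available for the first 1999 peaks of each list, from the study's annotation of the nearest gene. Peaks further down were not assigned here. There is 1 list per treatment, made from merged duplicates and without heights, so nothing was tested. Depth of the lists is not known here. In the DMSO list 8 peaks were named for 5 members. Of these, 4 overlapped no MB-3 peak, against 63.4% of the 1999 named DMSO peaks. They were the only named peak of Tada1 (mm9, chr1:168309319-168309749, 431 bp), the only one of Usp22 (chr11:60987859-60988473, 615 bp), 1 of the peaks of Tada2a (chr11:83943295-83943567, 273 bp) and 1 of those of Kat7 (chr11:95170343-95170780, 438 bp).

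The peak of Kat2a itself (mm9, chr11:100573368-100573820) was kept: 453 bp wide in DMSO, it overlapped an MB-3 peak of 297 bp. Kept as well were 1 peak of Tada2a, 576 bp in DMSO and 295 bp in MB-3, and 2 peaks of Kat7, 496 and 588 bp in DMSO and 347 and 558 bp in MB-3. All 4 kept peaks were narrower in MB-3, as were 91.4% of the 731 named DMSO peaks that overlapped an MB-3 peak (the widest where there were several). Tada2a and Kat7 thus kept at least 1 named peak each, while Tada1 and Usp22 kept none. When peaks within 1000 bp were counted as shared, 2 of 8 were lost instead of 4, those of Tada1 and Usp22, against 50.9% of the 1999 named DMSO peaks by the same rule. The RNA of these 5 genes was not called, with log2 fold changes of 0.01 for Tada1, 0.07 for Usp22, 0.06 for Tada2a, 0.04 for Kat7 and -0.01 for Kat2a.

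**Figure D5:**
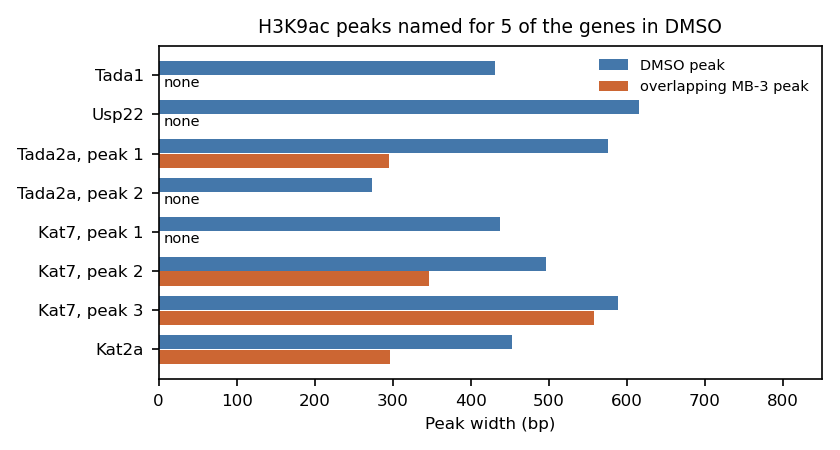
Width in bp of the 8 DMSO H3K9ac peaks named for 5 members (blue) and of the MB-3 peak that overlaps each (orange), with "none" where no MB-3 peak overlaps. The peaks of Tada1 and Usp22, 1 of Tada2a and 1 of Kat7 have no MB-3 peak, and the other 4, that of Kat2a among them, are narrower in MB-3.

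The named stretch of the MB-3 list reached further and held 5 more members. These were Atxn7l3 on chromosome 11 and, on further chromosomes, Taf9, Kat6b, Ep300 and Kat2b. Since these peaks were found through the MB-3 list, they could not be peaks lost with MB-3, and only their widths bear on the treatment. Each of these 10 peaks overlapped a DMSO peak, and in each the DMSO peak was the wider. Of all 1999 named MB-3 peaks, 96.8% overlapped a DMSO peak, and in 93.5% of these the DMSO peak was the wider. The peak of Taf9 was 676 bp in MB-3 and 2082 bp in DMSO, the widest of those named for a member. The widest peaks of Kat6b were 492 and 1483 bp, those of Kat2b 507 and 1309 bp and those of Ep300 634 and 1100 bp (MB-3 and DMSO). For Atxn7l3 the wider peak was nearly the same in both, 601 bp in MB-3 and 650 bp in DMSO. The MB-3 list as a whole was the shorter, with 4673 peaks against 11724 in DMSO, and whether the widths reflect acetylation or the depth of the lists cannot be told apart.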

How the data were processed

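RNA was sequenced from 6 cultures of TNGA cells (3 per treatment), and per the labels and the study's methods the authors trimmed the reads, aligned them to mm10 with Bowtie, and deposited raw counts of reads in the exons of 30677 Ensembl genes. Versions, annotation release and strand setting are not given in the sources used here. No row was without a gene name, and 0 columns were left unused. H3K9ac reads were aligned to mm9 with BWA, duplicates were merged and peaks were called with MACS2 against input; the authors deposited positions of peaks as 3 columns, with no score, and these positions were used as given with starts raised by 1.

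Symbols, exons and lengths were taken from GENCODE M21 (30540 identifiers matched). Counts were tested with edgeR 4.0.16 in R 4.3.3 (filterByExpr, which kept 20027 genes, TMM, glmQLFit and glmQLFTest, treatment as the only term, Benjamini-Hochberg adjustment, threshold 0.05). CPM are counts scaled to the TMM library size. Totals of 42270312 to 51137896 counts gave a median standard error of 0.070 for the members' log2 fold changes and 0.101 for all tested genes. The fit was tested on simulated data. Alternatives were DESeq2 1.42.0, limma-voom (limma 3.58.1), RLE and upper-quartile scaling, other filters, robust dispersions, a block for the replicate letter and each library left out in turn. Ratios were compared by exact permutation with scipy 1.17.1.

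The members, the lists and the rule for named genes (all members by role, with every library's value for the Kat2 pair, for members with a p under 0.05 or without overlap, and for the 3 highest and 3 lowest levels, and partner genes that were called or had the smallest p) were chosen with earlier results of these data known. Kat6b, Ep300, Crebbp and Kat6a were given in every library after their values were seen. Library pairs of the same treatment differed by far more than sampling noise (chi-square per gene 8.41 to 17.4), so that all 6 were counted as separate samples.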

Additional observations from a re-analysis of the deposited data

How the results depend on the processing

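The count of members differentially expressed was 0 under 13 of 14 alternatives, and their median log2 fold change stayed at 0.020 to 0.045 in all 14. The count over all genes was unstable: beside 41 it was 25 with upper-quartile scaling, 194 with no filter on low counts, 24 with a filter at 1 CPM in 3 libraries, 183 with DESeq2, 18 with limma-voom, 66 with edgeR's robust option, and 0 (without MB-3 replicate A or B, where 1440 and 1716 genes had an unadjusted p under 0.05 in edgeR) to 520 (without DMSO replicate B) when 1 library was left out. Of the 56 partner genes, 0 were called with upper-quartile scaling, the 1 CPM filter or limma-voom, 2 (Jade3, Sf3b3) with DESeq2, and 0 to 1 with 1 library left out. The members whose groups do not overlap were 4 to 15 with 1 library left out. The share of all tested genes was then 22.6% to 29.3%, against 15.6% with every library. The causes were not tested. Per length of the longest transcript, the median member level was 34.6% of that of Kat2a instead of 27.4%. Of 8 DMSO peaks at members 4 were lost, and 2 if an MB-3 peak up to 1000 bp away also counted (50.9% of the 1999 named DMSO peaks). With peaks under 500 bp left out of both lists, 2 of 3 were lost (74.3% of 1088 named), Usp22 and that of Tada2a whose MB-3 peak of 295 bp was left out.

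The replicate letters are not stated to pair cultures. Deviations from the group means correlated at 0.098 (A), 0.261 (B) and 0.213 (C) for the same letter and at -0.210 to -0.017 for other letters, over 20027 genes, and every library correlated best with its own letter. With the letter as a block, edgeR called 1425 genes, 2 members, Kat6b (log2 fold change 0.16, SE 0.04, adjusted p = 0.0196) and Ep300 (0.16, SE 0.05, adjusted p = 0.0338), both higher in MB-3, and 5 partner genes, Jade3, Sf3b3, Mbtd1, Ncoa3 and Hcfc1.

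Of 544 single-gene values under alternatives, 500 kept direction and side of the threshold and 29 changed sign, all of them without a call in either fit. With 1 library left out, 14 members had log2 fold changes on both sides of 0: Kat2a -0.034 to 0.039, Kat2b -0.054 to 0.076, Tada3 -0.002 to 0.043, Sgf29 -0.123 to 0.031, Tada1 -0.044 to 0.061, Taf9 -0.17 to 0.578, Taf10 -0.117 to 0.012, Taf12 -0.037 to 0.073, Atxn7 -0.021 to 0.099, Kat14 -0.031 to 0.019, Zzz3 -0.006 to 0.045, Mbip -0.000385 to 0.049, Kat5 -0.051 to 0.042 and Kat6a -0.054 to 0.209. Kat14 also changed sign with RLE size factors (-0.000852), upper-quartile scaling (-0.005), no filter on low counts (-0.006) and DESeq2 (-0.002).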
